A study of Mus musculus with 18 samples.

Results

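Cytosolic ribosomal protein genes encode the proteins of the ribosome that translates nuclear messages. The protein-coding genes of the count table whose symbols start with *Rpl* or *Rps* and a digit, together with *Rplp0*, *Rplp1*, *Rplp2* and *Rpsa*, were taken as this set, and the *Rps6k* kinase genes were left out. The rule found 103 of the 40800 Ensembl identifiers. Of these, 46 were core genes of the large subunit and 31 were core genes of the small subunit. A further 9 were paralogs, 16 were protein-coding entries with a pseudogene name, and 1, *Rps19bp1*, encodes a protein that binds Rps19 and is not part of the ribosome.

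RNA from whole mouse lenses, several lenses pooled per library, was sequenced in 18 libraries of C57BL/6J background, 3 per group. In the *Cryaa*-R49C knock-in line, lenses of WT, heterozygous (het) and homozygous (homo) mice were taken at 2 days of age. In the *Cryab*-R120G knock-in line, lenses of WT, het and homo mice were taken at 14 days. The mutations alter αA-crystallin and αB-crystallin, the small heat shock proteins of the lens, and are used as mouse models of hereditary cataract. The WT lenses of the pair of lines differ in age and in line at once, so the contrast between them cannot tell age and line apart. The replicates are separate pools of lenses, and a p-value covers the spread between such pools. Counts per gene do not show a point mutation, so the levels of *Cryaa* and *Cryab* are no check of the genotype.

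Each ribosome holds 1 copy of nearly every core protein, and the genes are transcribed together in growing cells. Their messages start with a run of pyrimidines at the cap, the 5′ terminal oligopyrimidine tract, through which the mTORC1 kinase pathway and the protein Larp1 set their translation. In the lens, epithelial cells at the front divide and differentiate into fibre cells, which make crystallins in bulk and then lose their nuclei and organelles, ribosomes included. A lens library therefore mixes cells that are growing with cells that have stopped making RNA, and in bulk samples fewer cells of a type and less RNA per cell cannot be told apart.

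Promoter sequence was available in a RefSeq table (mouse GRCm38.p6) for 57 of the 77 core genes, with 67 promoters. The letter C at the annotated start base followed by 4 or more C or T, read on the gene's own strand, was present in 19.4% of these promoters (13) and in 2.51% of all 32851 promoters. A C followed by 5 or more C or T, all inside the window from 10 bases before the start to 10 bases from it onward, was present in 43.3% of them (29) and in 15.1% of all promoters. The TATAAA box 40 to 15 bases before the start was found in 0 core promoters and in 1.99% of all promoters. The 7 starts shown were picked because the results below turn on these genes. Each line runs 5′ to 3′ from 30 bases before the annotated start to 20 bases from it onward, on the gene's strand, and capitals mark the part of such a run inside that window, which for *Rpl35* and *Rps27l* goes on past its edge.
Rpl35, chr2:39005112-39005161, minus strand: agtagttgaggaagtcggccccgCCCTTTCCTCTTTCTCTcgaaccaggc
Rpl12, chr2:32961682-32961731, plus strand: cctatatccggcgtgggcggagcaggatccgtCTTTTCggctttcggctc
Rps27l, chr9:66946056-66946105, plus strand: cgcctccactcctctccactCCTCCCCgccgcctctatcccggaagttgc
Rps19bp1, chr15:80264287-80264336, minus strand: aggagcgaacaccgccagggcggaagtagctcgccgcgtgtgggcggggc
Rps7, chr12:28635934-28635983, minus strand: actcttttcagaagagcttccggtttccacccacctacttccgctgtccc
Rplp0, chr5:115559437-115559486, plus strand: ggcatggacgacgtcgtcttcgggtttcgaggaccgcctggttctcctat
Rpl39, chrX:37085203-37085252, minus strand: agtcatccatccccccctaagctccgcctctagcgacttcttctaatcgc
*Rps27l* has a further annotated start that is not shown. *Rpl35*, *Rpl12* and *Rps27l* carried a run in the window, and the other starts shown did not. In *Rpl39* a run began inside the window and reached its length only past the edge, so it is not marked. A run that is missing at an annotated start says only that these letters were not in this window.

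Ribosomal protein genes have many processed pseudogenes, and only reads that aligned to 1 place and 1 gene were counted. Of the 50-base words in the principal transcript of each core gene (GENCODE vM21, the same GRCm38 assembly), a median of 41.3% in the large subunit and 48.3% in the small subunit occurred in no other annotated gene. The share was at least 50% in 31 of the 77 core genes and under 10% in 5. Of the words of *Rps3*, 97% were its own. The least distinct genes were *Rps27* (1.4%, shared with 8 annotated pseudogenes), *Rpl35* (4.9%), *Rpl5* (6.2%), *Rpl9* (6.7%) and *Rpl10* (7.9%). Core genes at or above 50% had a median level of 68.2 CPM (counts scaled to a common library size with TMM, edgeR's trimmed mean method) per kilobase of transcript. Those under 50% had a median of 16.0, and Spearman's rho between share and level was 0.50 across the 77 genes, which are not independent replicates. Levels of core genes differed widely, for example 0.455 CPM per kilobase for *Rpl24* and 465 for *Rpl32*, although their proteins are made for the same particle. A level is therefore the level of the countable part of a message, and a gene is compared below with itself across libraries.

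**Figure D1:**
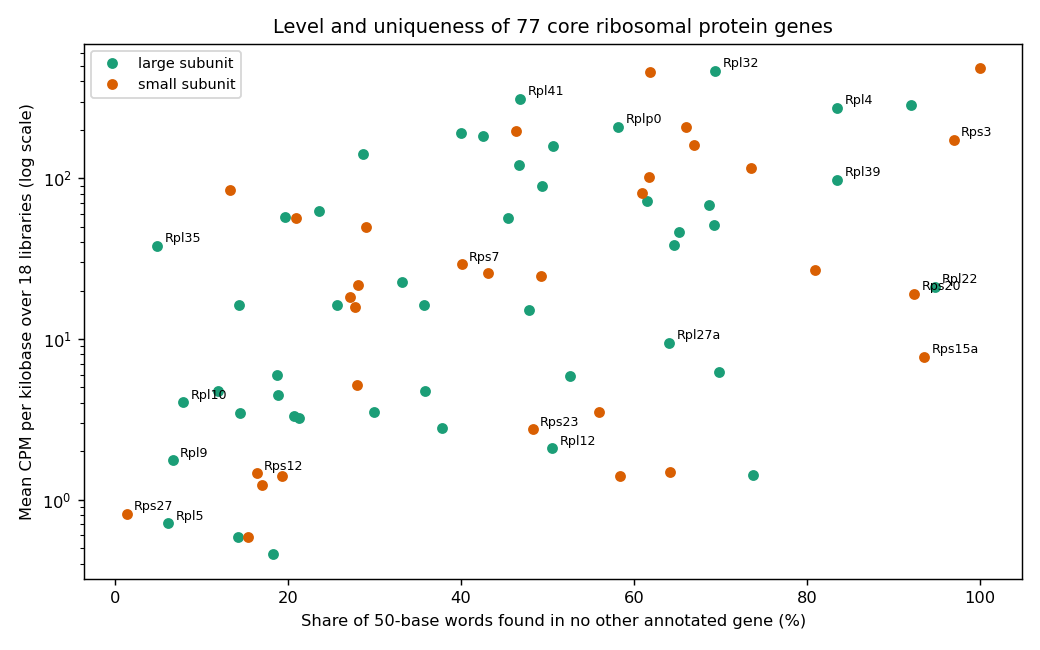
Mean level of each of the 77 core genes (CPM per kilobase over 18 libraries, log scale) against the share of its 50-base words found in no other annotated gene. Levels tend to be higher at larger shares (rho 0.50) with wide scatter: *Rpl35* at 4.9% lies at 38.1 and *Rpl21* at 73.8% at 1.43 CPM per kilobase. Both axes depend on the principal transcript taken for a gene, which for *Rpl21* has 1856 bases, 480 of them coding.

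Library totals ranged from 14272174 to 29639719 counts, and the ribosomal protein genes together gave between 54113 and 165744 of them. *Rpl4*, a large-subunit protein that lines the exit tunnel, alone gave 9.39% of these counts, *Rps3* gave 6.55%, and 8 genes gave 49.8%. All 77 core genes, 5 paralogs, 4 entries with pseudogene names and *Rps19bp1*, 87 in all, passed the filter on low counts. The 16 that did not were *Rpl3l*, *Rpl10l*, *Rpl39l*, *Rpl6l*, *Rpl7a-ps3*, *Rpl7a-ps5*, *Rpl9-ps1*, *Rpl21-ps4*, *Rpl23a-ps3*, *Rpl27-ps3*, *Rpl36-ps3*, *Rpl36-ps4*, *Rps2-ps6*, *Rps12-ps3*, *Rps18-ps3* and *Rps26-ps1*, none of which had over 10 counts in any library. Paralogs known from muscle and testis were close to absent. *Rpl3l*, the striated muscle form of *Rpl3*, had at most 3 counts in a library, *Rpl39l* at most 3, and *Rpl10l*, a testis form of *Rpl10*, at most 1.

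The direction of the change between WT lenses at day 2 and day 14 depended on what the counts were set against. As a share of all counts, the ribosomal protein genes took 0.477%, 0.439% and 0.587% at day 2 and 0.297%, 0.336% and 0.305% at day 14. The ages did not overlap, and the day 14 share was 0.624 times the day 2 share. Crystallin genes and Gm42418, an RNA gene that alone took 2.53% to 42.6% of a library, held most of the counts. Without these 17 genes the shares were 1.92%, 1.86% and 1.89% at day 2 and 1.88%, 2.14% and 2.05% at day 14, and they overlapped. After TMM scaling, which assumes that most genes do not change, the sums were 3614, 3654 and 2936 CPM at day 2 and 5961, 6163 and 6247 CPM at day 14, 1.80 times higher at day 14.

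**Figure D2:**
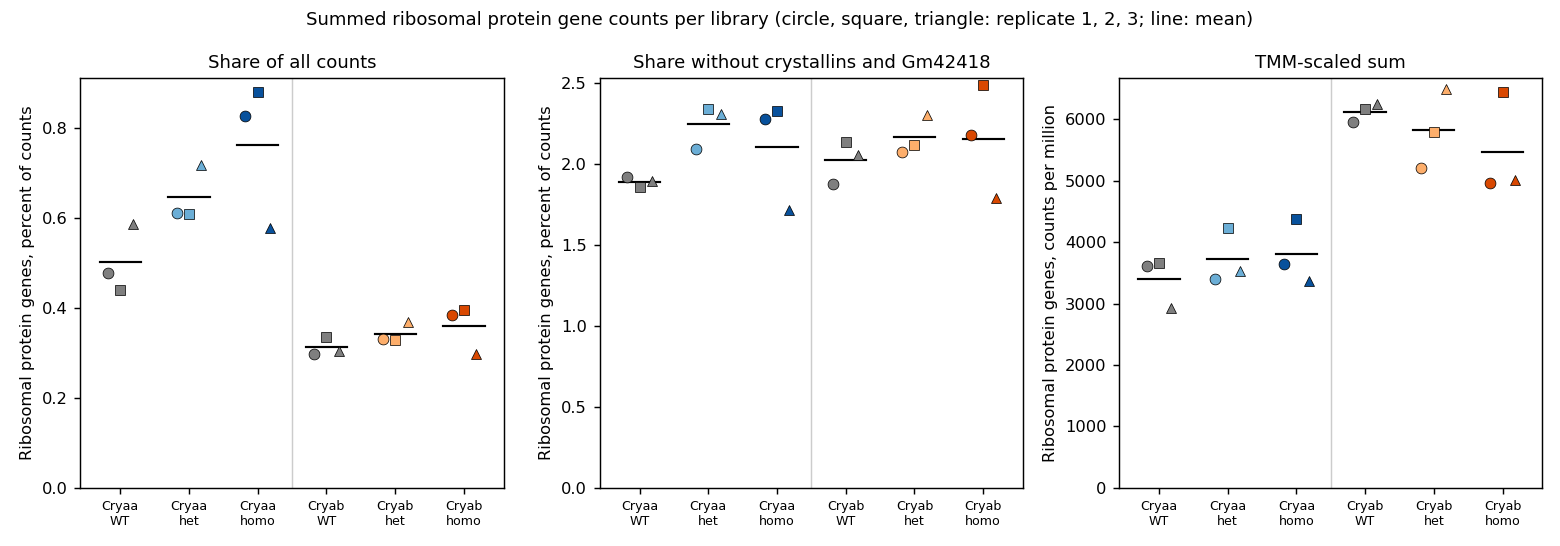
Summed counts of the 103 ribosomal protein genes in each of the 18 libraries, as a percent of all counts, as a percent of the counts without crystallin genes and Gm42418 (17 genes), and as CPM after TMM scaling; points are libraries, horizontal lines are means of 3. In WT lenses day 14 lies below day 2 in the first panel, overlaps it in the second and lies above it in the third.

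Gene by gene with TMM scaling, 49 of the 87 tested genes were higher in day 14 WT lenses and 0 were lower at an adjusted p of at most 0.05, where 11.7% of the 13938 genes tested were higher and 11.5% lower. The median log2 fold change was 0.81 over the 87 genes and -0.07 for the 13938 genes. With library size alone 0 were higher and 56 were lower, where 1.13% of all genes were higher and 82.1% lower. Their median was then -0.73 and the median for the whole table -1.61. Set against the median of the table, the ribosomal protein genes lay 0.87 higher on the log2 scale with TMM and 0.88 higher with library size alone. Scaling moves all genes of a library alike, so these values are near each other by construction and do not test the rise. On the TMM scale, all 3 day 14 WT libraries lay above all 3 day 2 WT libraries in 65 of the 87, against 20.2% of all genes. The reverse held for 0 of the 87 on that scale, against 22.9% of all genes.

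The log2 fold changes ran from -0.37 to 1.28. Of the core genes, 30 of 46 in the large subunit and 15 of 31 in the small subunit rose, as did 4 of 5 paralogs and 0 of 4 entries with pseudogene names. *Rpl41*, which encodes the smallest ribosomal protein, had 85.1, 94.8 and 69.7 CPM at day 2 and 167, 228 and 206 CPM at day 14. Its log2 fold change was 1.27 ± 0.22 (SE, adjusted p = 0.000285). *Rps3*, a protein of the mRNA entry site, went from 244, 239 and 184 CPM to 523, 482 and 497 CPM, a rise of 1.17 ± 0.23 (adjusted p = 0.000923). In both genes the ages were well apart. *Rpl35*, a tunnel exit protein with the long pyrimidine run shown above, had 24.2, 25.0 and 20.7 CPM and then 45.2, 49.2 and 63.3 CPM (1.17 ± 0.22, adjusted p = 0.000476).

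Large rises were also measured in genes of low level. *Rps12* had 0.511, 0.642 and 0.420 CPM at day 2 and 1.54, 1.001 and 1.34 CPM at day 14. The rise was 1.28 ± 0.46 with an adjusted p of 0.0489, and that call was lost when any 1 of the 6 WT libraries was left out. *Rps27rt*, a retrocopy of *Rps27* with 8.9% of its words its own, rose by 1.195 ± 0.32 (adjusted p = 0.00903), a call lost without day 2 WT replicate 3 or day 14 WT replicate 2. These 5 genes had the largest fold changes among the genes called, and with library size alone each of them was below 0 and not called.

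Among the proteins of the P stalk, which recruits translation factors to the large subunit, *Rplp0* had 211, 210 and 174 CPM at day 2 and 394, 444 and 403 CPM at day 14 (1.06 ± 0.25, adjusted p = 0.00418). Its partners *Rplp1* (0.99) and *Rplp2* (0.86) rose as well, while *Rpl12*, at the base of the stalk, was at 0.25 and not called (adjusted p = 0.647). The pair *Rpl5* and *Rpl11*, which travel with the 5S rRNA and bind the p53 regulator Mdm2 when free, were both low and were not called, with log2 fold changes of -0.21 ± 0.39 and 0.71 ± 0.30. *Rps6*, the target of the S6 kinases, was at 0.377 ± 0.189 CPM (SD, n = 3) at day 2 and 0.391 ± 0.164 CPM at day 14, and 15.4% of its words were its own. *Rpsa* had a log2 fold change of 0.72 with an adjusted p of 0.0507.

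Paralog pairs moved together in part. *Rpl22*, which represses its paralog in other tissues, rose by 0.61 and that paralog, *Rpl22l1*, by 0.92. *Rps27l*, a p53-responsive paralog of *Rps27*, rose from 24.1, 22.7 and 17.3 CPM to 37.6, 33.0 and 43.9 CPM (0.84 ± 0.24, adjusted p = 0.0136). *Rpl36al* rose by 0.99 while *Rpl36a* was at -0.02 and not called, and *Rpl7* rose by 1.14 while *Rpl7l1*, a nucleolar relative of *Rpl7*, was at -0.01 and not called. The difference within a pair was not tested.

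**Figure D3:**
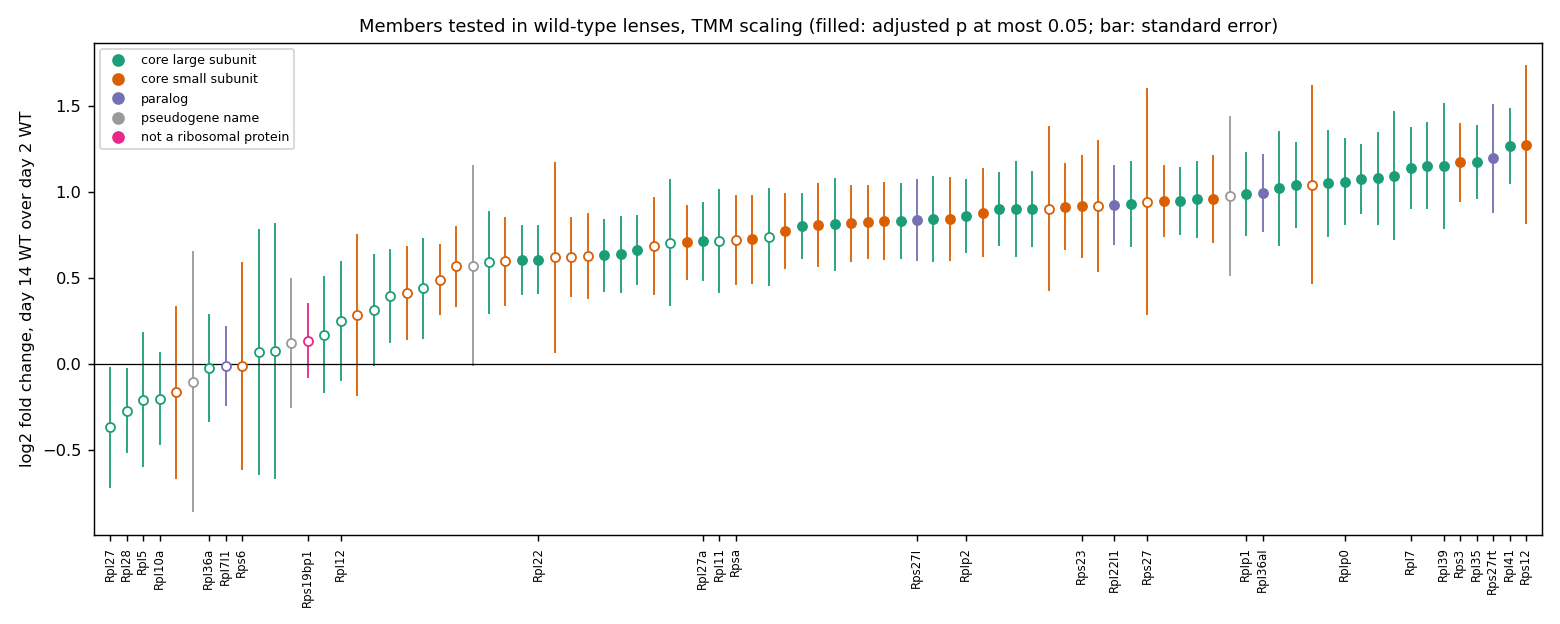
Log2 fold change (day 14 WT over day 2 WT, TMM scaling) with its standard error for the 87 genes tested, in rising order and coloured by class, with names on the axis for some of them; filled points have an adjusted p of at most 0.05. The 49 filled points all lie above 0, and the lowest value is *Rpl27* at -0.37.

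To ask which genes moved against the rest of the set, the table was fitted again with the summed ribosomal protein counts of a library as its size. On that scale 1 gene was higher at day 14 and 7 were lower, where 2.77% of all genes were higher and 51.5% lower. *Rpl41* rose by 0.42 (adjusted p = 0.0371). The genes that fell against the set were *Rpl27* (-1.22), *Rpl28* (-1.11), *Rpl5* (-1.07), *Rpl10a* (-1.04), *Rpl36a* (-0.89), *Rpl7l1* (-0.88) and *Rps19bp1* (-0.71). *Rpl28* had 7.20, 7.26 and 4.91 CPM at day 2 and 5.40, 5.67 and 4.97 CPM at day 14, so its TMM level overlapped between the ages while the set as a whole was higher. The call of *Rpl41* was lost in 5 of the 6 fits without 1 WT library, those of *Rpl5* and *Rpl36a* in 4 each, that of *Rpl10a* in 2 and that of *Rpl27* in 1. *Rpl28* remained lower against the set when any 1 of the WT libraries was left out.

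Other parts of the translation machinery were counted in the same contrast, where again 11.7% of all genes were higher and 11.5% lower. Of 29 translation factors and related genes with messages taken to carry the same tract (not checked here), 7 rose and 0 fell (median 0.46). *Eif4a2*, a helicase of initiation (1.36 ± 0.28, adjusted p = 0.00123), and *Eef1d*, an exchange factor of elongation (1.15 ± 0.25, adjusted p = 0.00186), were among them. Of the ribosomal proteins with other names, *Fau* (0.88) and *Gnb2l1* (0.78) rose. Of 74 mitochondrial ribosomal protein genes, 20 rose and 0 fell (median 0.50). Of 83 ribosome biogenesis genes, 4 rose and 6 fell, with a median of -0.19.

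Marker lists moved between the ages too. The summed level of 12 lens fibre markers was 82890 to 124400 CPM in day 2 WT libraries and 445200 to 488500 CPM in day 14 WT libraries, and that of 11 epithelium markers was 220.5 to 256.8 and 291.3 to 354.2 CPM. *Lim2* in the first list and both identifiers of *Pdpn* in the second were at 0 counts in every group. Of the 9 epithelium genes tested, 6 had log2 fold changes above 0 and 3 below, with 1 called higher and 2 lower. The sum of 9 macrophage markers was 8.38 to 17.97 CPM at day 2 and 0.467 to 2.31 CPM at day 14, with *Adgre1* at 0 at day 14, and that of 10 vessel and mesenchyme markers 39.2 to 67.2 CPM and 12.2 to 16.3 CPM. The 12 retina markers gave 27.8 to 94.8 CPM at day 2 and 876, 26.4 and 91.4 CPM in the day 14 WT replicates 1, 2 and 3. The 8 erythrocyte markers ranged from 36.9 to 57.9 CPM and from 15.6 to 146 CPM, and the 8 pigment cell markers from 18.9 to 35.3 CPM and from 6.28 to 7.64 CPM, with *Tyr* at 0 at day 14. Their part in the rise was not tested. Without day 14 WT replicate 1, the library high in retina markers, the median log2 fold change of the set was 0.78. The number of genes called fell to 19 without day 2 WT replicate 3, to 30 without day 14 WT replicate 3 and to 32 without day 14 WT replicate 2, and leaving out any 1 WT library gave medians of 0.69 to 0.83.

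In het lenses of the *Cryaa*-R49C line 0 of the 87 genes were called against WT with edgeR, where 0% of all genes were higher and 0.00717% lower (1 gene), and the same held against the summed counts of the set. An unadjusted p was under 0.05 for 4 of the 87, against 709 of the 13938 genes tested, and DESeq2 called 0 of the 87 as well. The median log2 fold change was 0.12, and it was 0.01 without het replicate 2 and 0.19 without WT replicate 2. As a share of all counts the set took 0.610%, 0.609% and 0.718% in het, all above the WT libraries. Without crystallins and Gm42418 the het shares were 2.09%, 2.34% and 2.31%, again all above WT, while the TMM sums of 3394, 4238 and 3526 CPM overlapped WT. Gene by gene, 8 had all 3 het libraries above all 3 WT libraries and 0 had them below, against 9.57% and 12.3% of all genes. *Rps13* was the highest at 1.09 (adjusted p = 0.836), with 0.298, 0.540 and 0.490 CPM in WT and 0.953, 0.949 and 0.972 CPM in het.

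In homo lenses of this line 5 of the 87 genes (5.75%) rose against WT and 0 fell, where 4.87% of all genes were higher and 4.91% lower. The share that rose was thus near that of the table, and *Rps19bp1*, not part of the ribosome, was among the 5. All 3 homo libraries lay above all WT libraries in 13 of the 87 and below them in 1, against 11.9% and 12.6% of all genes. With library size alone 36 were higher, where 13.5% of all genes were. *Rpl12*, whose protein lies at the base of the P stalk, had 1.66, 1.65 and 1.33 CPM in WT, 2.12, 2.40 and 1.42 CPM in het and 3.92, 6.07 and 6.46 CPM in homo. Its log2 fold change against WT was 1.82 ± 0.32 (adjusted p = 0.000686). *Rps27l* had 22.9, 29.7 and 25.8 CPM in het and 44.0, 91.0 and 61.9 CPM in homo, above all WT values given above, with a log2 fold change of 1.62 ± 0.24 (adjusted p = 9.11e-05). Homo libraries of both genes were all above WT and het.

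*Rps19bp1*, also known as a cofactor of the deacetylase Sirt1, had 6.603, 6.38 and 5.29 CPM in WT, 6.16, 8.03 and 7.63 CPM in het and 11.5, 16.8 and 14.1 CPM in homo (1.22 ± 0.21, adjusted p = 0.000543). *Rpl27a* rose from 7.28, 7.19 and 6.97 CPM in WT to 10.6, 17.8 and 15.5 CPM in homo (1.03 ± 0.23, adjusted p = 0.00446). *Rps23*, a protein of the decoding centre, had 1.19, 1.72 and 1.401 CPM in WT and 2.60, 3.27 and 2.70 CPM in homo (0.98 ± 0.29, adjusted p = 0.031). The share of words of its own was 50.6% in *Rpl12*, 77.6% in *Rps27l*, 100% in *Rps19bp1*, 64.1% in *Rpl27a* and 48.3% in *Rps23*. The call of *Rps23* was lost in 5 of the 6 fits that left out 1 library, with adjusted p up to 0.141, and the calls of the other 4 were kept in all 6. That of *Rpl27a* was lost with only the libraries of the contrast in the fit (1.04, adjusted p = 0.0586). Of the 5 genes, *Rpl12*, *Rps27l* and *Rps19bp1* were also higher in homo than in het lenses, with log2 fold changes of 1.47, 1.33 and 0.96, and 0 fell, where 4.69% of all genes were higher and 3.63% lower. Against het, the calls of *Rps27l* and *Rps19bp1* were lost with only the compared libraries in the fit, and the likelihood-ratio test also called falls. Homo libraries were all above het in 5 of the 87 and all below in 7, against 11.6% and 10.5% of all genes.

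**Figure D4:**
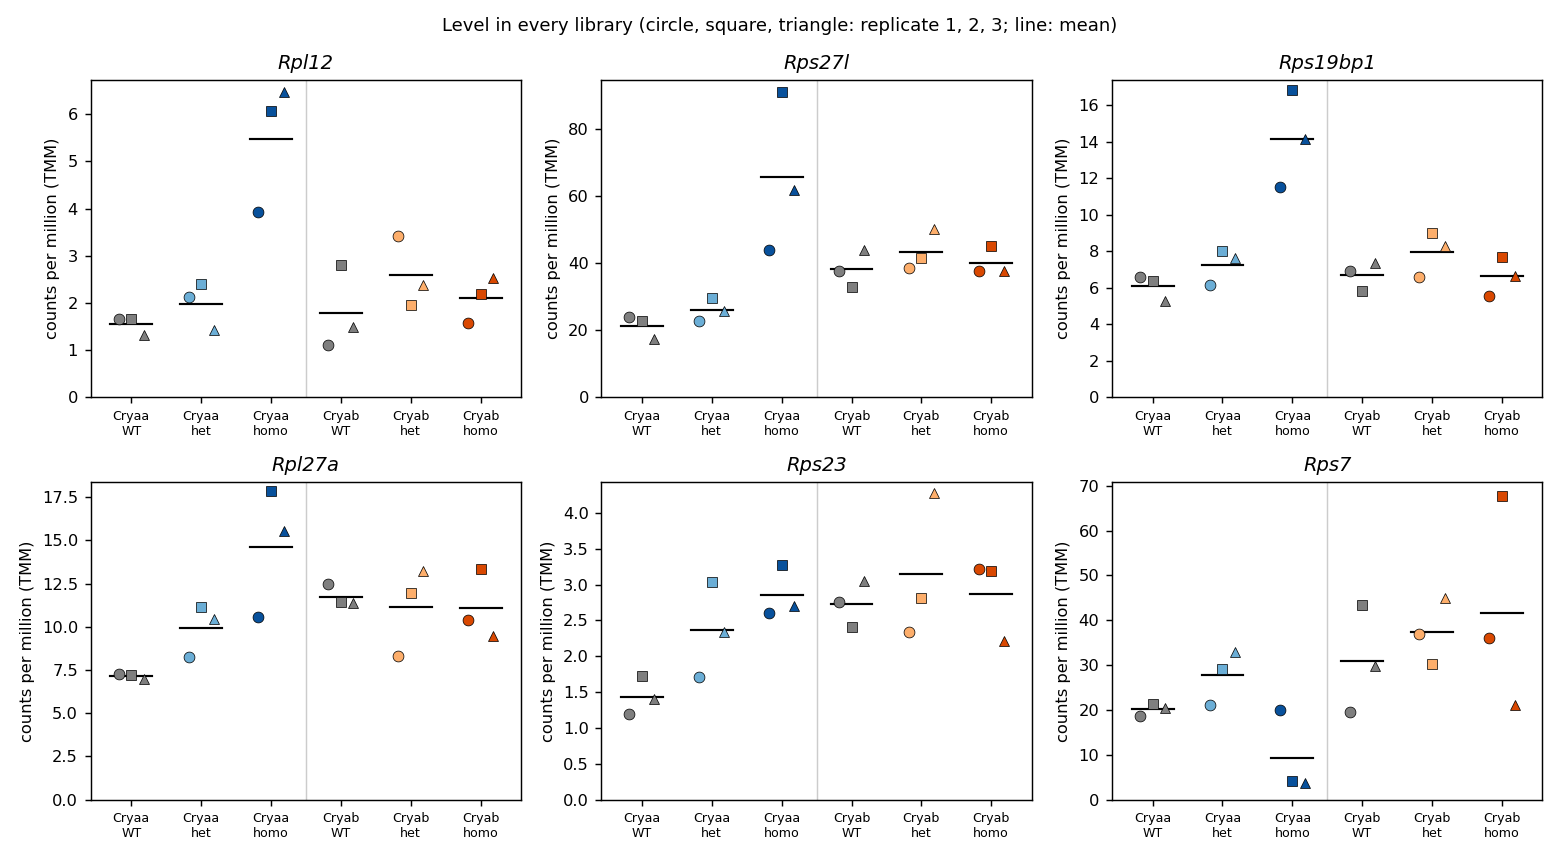
TMM-scaled CPM of 6 genes in each of the 18 libraries, by group, with a line at the mean of 3. The 3 *Cryaa*-R49C homo libraries lie above the WT libraries of their line for *Rpl12*, *Rps27l*, *Rps19bp1*, *Rpl27a* and *Rps23*; for *Rps7*, homo replicates 2 and 3 (4.12 and 3.65 CPM) lie far below replicate 1 (20.02 CPM).

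Over the 87 genes the median difference (log2) in homo lenses was 0.23, with 0.08 without homo replicate 2 and 0.34 without homo replicate 1. The homo libraries differed from each other. Over the 48 core genes with a mean of at least 10 CPM, the log2 differences of a library from the WT mean had a spread of 0.30 (SD) in replicate 1, 0.80 in replicate 2 and 0.64 in replicate 3.

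The split ran partly along the length of the coding sequence. *Rps7*, with 582 bases and a role in 18S rRNA processing, had 18.7, 21.3 and 20.5 CPM in WT and 20.02, 4.12 and 3.65 CPM in homo replicates 1, 2 and 3. *Rplp0*, with a coding length of 951 bases, had 221, 115 and 99.1 CPM in the homo replicates. *Rpl3*, with 1209 bases, had 14.9, 11.9 and 16.2 CPM in WT and 21.3, 6.19 and 7.03 CPM in homo. Replicates 2 and 3 were low in each of these genes while replicate 1 was near or above the WT libraries. *Rpl39*, with 153 bases, showed the reverse, with 42.0, 44.4 and 27.4 CPM in WT and 28.1, 130 and 62.8 CPM in homo. *Rpl37*, with 291 bases, had 38.2, 41.6 and 30.3 CPM in WT and 31.0, 124 and 59.6 CPM in homo.

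Across the 48 genes, Spearman's rho between coding length and the difference from WT was 0.60 in homo replicate 1, -0.73 in replicate 2 and -0.48 in replicate 3. Over 12849 genes with an annotated coding length, the same values were -0.35, 0.09 and 0.12. In the het libraries rho over the 48 genes was 0.12, 0.44 and 0.47, and in the *Cryab*-R120G homo libraries 0.47, 0.49 and 0.15. The WT libraries, each set against the mean of the remaining WT libraries of its line, gave 0.04, -0.45 and 0.35 at day 2 and -0.26, 0.47 and -0.44 at day 14, so values near that of homo replicate 3 also occurred among WT libraries. *Rpl4*, with 1257 bases and log2 differences of 0.52, 0.28 and 0.37, and *Rpl41*, with 75 bases and -0.19, -0.22 and -0.54, went against the trend of replicates 2 and 3.

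**Figure D5:**
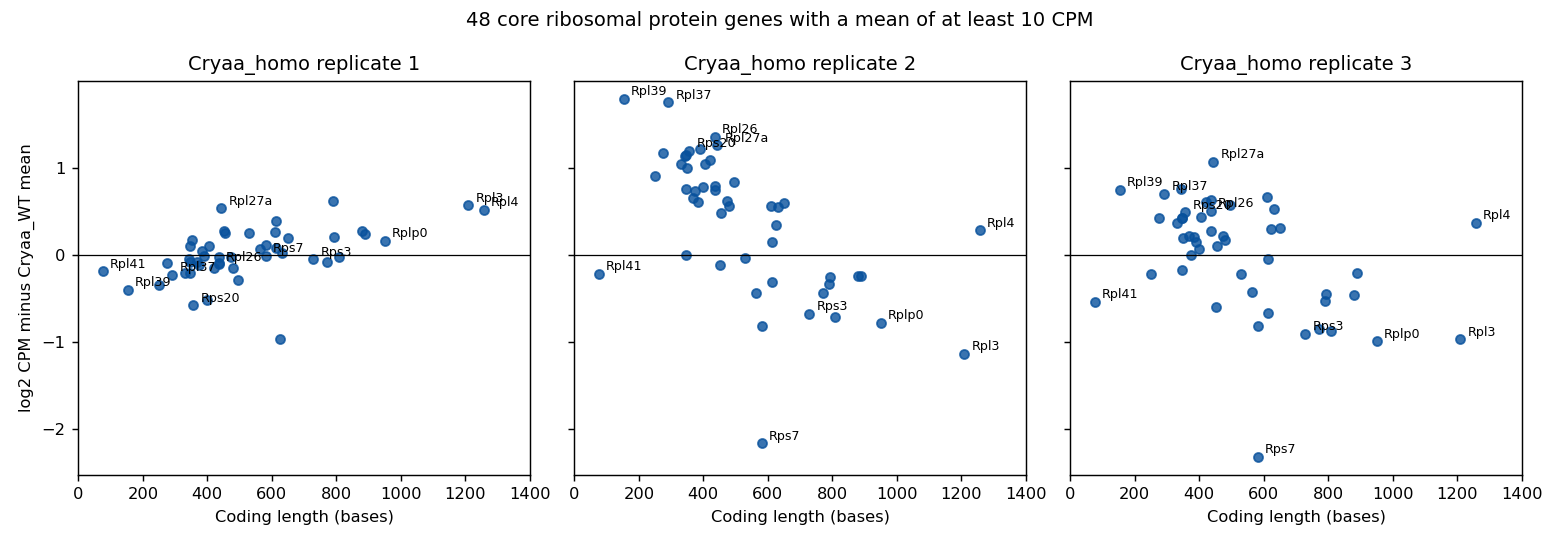
Log2 CPM minus the mean of the WT libraries against coding length in bases, for 48 core genes in the 3 *Cryaa*-R49C homo libraries. The points rise with coding length in replicate 1 (rho 0.60) and fall in replicates 2 and 3 (rho -0.73 and -0.48).

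The count of genes called in homo lenses changed with replicate 1. Without it, 32 of 89 genes were called, 25 higher and 7 lower, where 9.19% of all genes were higher and 12.3% lower. The lower genes were *Rps7* (-2.38), *Rpl3* (-1.12), *Rplp0* (-0.89), *Rps9* (-0.83), *Rpl7* (-0.80), *Rps3* (-0.80) and *Rpl8* (-0.64), and those with the largest further rises were *Rps28* (1.46), *Rpl39* (1.34) and *Rpl37* (1.32). Without replicates 2 and 3, a comparison chosen after the data were seen in which the lone homo library was assumed to vary like the other groups, 7 of the genes were called, 6 higher and 1 lower, where 7.37% of all genes were higher and 4.31% lower. All of the 5 genes called with the 3 homo libraries were called without replicate 1, and 3 of them, *Rps27l*, *Rpl12* and *Rps19bp1*, were called without replicates 2 and 3. Against het lenses none of these 3 passed the threshold without homo replicates 2 and 3, with log2 fold changes of 0.9985 for *Rpl12*, 0.76 for *Rps27l* and 0.68 for *Rps19bp1*.

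Homo replicates 2 and 3 also differed from replicate 1 in markers and in Gm42418. Fibre markers summed to 103900, 49680 and 41190 CPM in homo replicates 1, 2 and 3, vessel and mesenchyme markers to 43.7, 176 and 148 CPM, macrophage markers to 19.0, 39.1 and 38.4 CPM, epithelium markers to 188, 391 and 327 CPM and erythrocyte markers to 41.6, 150 and 79.6 CPM. Retina markers were 29.1 to 48.1 CPM and pigment cell markers 8.90 to 15.4 CPM. The epithelium genes did not move together: of 9 tested in homo against WT, 4 had log2 fold changes above 0 and 5 below, with a median of -0.56. Gm42418 took 2.53%, 24.5% and 42.6% of the counts in homo and 27.8%, 30.1% and 20.01% in WT, so that replicate 1 lay below the WT libraries, replicate 2 among them and replicate 3 above. The part of these differences in the split among ribosomal protein genes was not tested.

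Against the summed counts of the set, 4 genes were higher in homo than in WT lenses of this line and 2 were lower, where 2.48% of all genes were higher and 5.69% lower. *Rpl12* (1.67), *Rps27l* (1.45), *Rps19bp1* (1.06) and *Rpl27a* (0.86) rose, and *Rps3* (-0.65) and *Rpl8* (-0.59) fell, the call of *Rpl27a* being lost in 3 and each fall in 5 of the 6 fits without 1 library. Homo against het gave the first 3 of these and a fall of *Rpl7* (-0.70), where 3.06% of all genes were higher and 3.03% lower. The call of *Rpl7* was lost in 5 of the 6 fits without 1 library and that of *Rpl12* in 2. Leaving out 1 library gave 3 to 38 genes called against WT and 2 to 42 against het, both highest without homo replicate 1.

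In the same contrast of homo with WT, genes for the control of translation and ribosome assembly were counted too, where again 4.87% of all genes were higher and 4.91% lower. Of 33 genes that control initiation, 3 rose and 6 fell, with a median of 0.02. The 3 were *Sesn2* (3.18 ± 0.33, adjusted p = 1.03e-06), a stress-induced inhibitor of mTORC1, *Eif4ebp1* (2.98 ± 0.28, adjusted p = 2.99e-07), which binds the cap-binding protein eIF4E, and *Ddit4* (2.29 ± 0.31, adjusted p = 2.84e-05), another inhibitor of mTORC1. *Tsc2*, which also restrains mTORC1, fell by 1.98 on the log2 scale, and *Eif4ebp2*, *Sesn1*, *Sesn3*, *Larp4* and *Eif2ak2* fell as well. Of 83 ribosome biogenesis genes, 10 rose and 1 fell (median 0.26), among them *Tsr1* (1.32), *Nop14* (1.22) and *Gnl3* (1.198), factors of subunit assembly and the nucleolus. Mitochondrial ribosomal protein genes rose in 11 and fell in 1 of 74. Of the 29 translation factors and related genes listed above, 3 rose (*Nap1l1*, *Eif4a1* and *Eif3c*) and 0 fell.

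In the *Cryab*-R120G line 0 of the 87 genes were called with edgeR in het lenses, where 0.00717% of all genes were higher and 0% lower, on the TMM scale and against the summed counts of the set alike. In homo lenses 0 were called with TMM, where 0.0287% of all genes were higher and 0.0215% lower, and 0 against the summed counts, where 0.043% were higher and 0.0143% lower. DESeq2 called 0 in both genotypes. An unadjusted p was under 0.05 for 1 of the 87 genes in each, *Rpl29*, against 532 of the 13938 genes tested in het and 850 in homo. This large-subunit protein had 25.0, 24.2 and 24.6 CPM in WT, 10.6, 22.8 and 14.3 CPM in het and 11.3, 6.93 and 17.7 CPM in homo. All mutant libraries were below all WT libraries, with log2 fold changes of -0.62 in het and -1.05 in homo (adjusted p = 0.423). *Rpl29* shares words with 81 annotated pseudogenes, and 33.2% of its words were its own.

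In het lenses 2 of the 87 genes had all 3 libraries above WT and 2 below, against 4.62% and 5.47% of all genes. The median log2 fold change was -0.02 in het and -0.12 in homo lenses of this line. In het it ran from -0.11 without het replicate 3 to 0.05 without het replicate 1, and in homo from -0.26 without homo replicate 2 to -0.02 without homo replicate 3. In homo lenses 15 of the 87 genes had all 3 libraries below all 3 WT libraries and 0 had them above, where 4.5% of all genes were separated downward and 4.51% upward. Among the 15 were *Rps27*, *Rpl29*, *Rps21*, *Rpl37*, *Rpl35*, *Rpl31*, *Rpl37a*, *Rpl35a*, *Rps15*, *Rplp2*, *Rpl32*, *Rps24*, *Rps19* and *Rps2*. Of these, *Rplp2* had 64.9, 68.1 and 60.9 CPM in WT and 48.2, 55.8 and 50.0 CPM in homo. With library size alone the median of the set was 0.23, so the direction of this small shift depended on the scaling. Marker sums differed as well: in homo lenses retina markers were at 1326, 679 and 232 CPM, pigment cell markers at 15.4 to 27.1, vessel and mesenchyme markers at 17.5 to 22.4, macrophage markers at 2.07 to 4.65 and erythrocyte markers at 49.2 to 178 CPM. Fibre markers were at 348600 to 446900 CPM and epithelium markers at 224.5 to 330.8 CPM. Of these, pigment and vessel sums lay above all WT libraries of the line given above, and the others overlapped them. Their part in the shift was not tested.

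The difference between the lines in the effect of the homo genotype was tested as an interaction. It was past the threshold for 2 of the 87 genes, both lower in the *Cryab*-R120G line, where 1.75% of all genes were higher and 1.16% lower. Leaving out 1 library gave 1 to 23 genes, the most without *Cryaa* homo replicate 1. Against the summed counts of the set only *Rps27l* passed (-1.203, adjusted p = 0.013, and 0.0518 without *Cryab* WT replicate 3), where 2.66% of all genes were higher and 0.531% lower. *Rps27l* had 38.7, 41.5 and 50.2 CPM in het and 37.7, 45.1 and 37.7 CPM in homo lenses at day 14, which overlapped WT, and the difference between the effects was -1.54 ± 0.33 (adjusted p = 0.0104). *Rps19bp1* had 6.94, 5.80 and 7.35 CPM in day 14 WT and 5.57, 7.70 and 6.65 CPM in day 14 homo lenses, with a difference of -1.22 ± 0.31 (adjusted p = 0.0294). The call of *Rps19bp1* was lost in 7 of the 12 fits without 1 library, with adjusted p up to 0.099, and with only the libraries of the contrast in the fit (0.0941). *Rpl12* missed the threshold, with a difference of -1.63 ± 0.48 (adjusted p = 0.0692).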

How the data were processed

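The authors aligned single-end reads with STAR 2.0.4b to GRCm38 and counted uniquely aligned, unambiguous reads per Ensembl gene with featureCounts 1.4.5; they deposited these counts without normalization. Strand setting is not given in the sources used here. Deposited tables of CPM, RPKM-like and moderated log2 values were not used. For 6 *Cryab* libraries the label for genotype gives the *Cryaa* line instead, and the titles set their groups.

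Genes kept by filterByExpr (13938) were scaled with TMM and fitted in 1 model of 6 groups and 18 libraries with edgeR 4.0.16 (R 4.3.3), robust dispersions and the quasi-likelihood test; adjusted p-values are Benjamini-Hochberg over all genes, threshold 0.05. SE is the log2 fold change over the square root of F. Gene by gene, overlap between groups was judged on TMM-scaled CPM. A second fit used the summed ribosomal protein counts as library size. Planned tests of the summed shares are not given, since sums over a chosen set carry no p here. The members, gene lists and named genes (the 5 largest rises and falls past the threshold per contrast, and preset paralog pairs and roles) were chosen with earlier results of these data known, and promoters shown, *Rps13*, *Rpl29* and *Rplp2* in homo lenses and the genes of the homo library split after values were seen.

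*Cryab* WT and homo libraries of equal number deviated together (r = 0.277, 0.176 and 0.156), so the pairing was tried as a block, with 0 genes called there as before; no other contrast had r above 0.1 in every pair. Genes of few counts are limited by counting error.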

Additional observations from a re-analysis of the deposited data

Results flagged for a closer look

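The effect of the homo genotype differed between the *Cryab*-R120G and *Cryaa*-R49C lines for 2 ribosomal protein set genes, by the interaction test. The difference was -1.54 for *Rps27l*, with an adjusted p of 0.0104 that stayed under 0.05 in all 12 fits without 1 library (highest 0.0406), and the log2 fold changes within the lines were 0.07 and 1.62. For *Rps19bp1* it was -1.22 with an adjusted p of 0.0294, which was lost in 7 of the 12 fits (highest 0.099). Age and line differ together in this comparison and cannot be told apart.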

How the results depend on the processing

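Of the recomputed counts, medians and shares, 273 stayed near the reported value, 47 moved and 8 reversed. A median or share was taken as near if it moved by less than the spread between replicates, even where its sign turned. The median for homo against het in the *Cryaa* line, 0.12 in the main fit, ran from -0.13 to 0.32 and was taken as near. Of the recomputed values for single genes, 308 kept their call, 76 lost it and 5 reversed. The cause of these moves was not tested. With library size alone, 56 genes were called between the ages, all lower, with a median of -0.73, and *Rps12* (-0.22), *Rpl41* (-0.25), *Rps27rt* (-0.31), *Rpl35* (-0.37) and *Rps3* (-0.35) reversed; the median was 0.36 in *Cryaa* het, 0.69 in *Cryaa* homo with 36 called, and 0.23 in *Cryab* homo, and homo against het gave 8. In *Cryaa* homo against WT, 8 were called with every gene kept, 10 with DESeq2, 17 with the likelihood-ratio test and 3 with only the libraries compared; homo against het gave 7, 9, 19 (9 higher, 10 lower) and 1 in that order, and 1, lower, without homo replicates 2 and 3, chosen after the data were seen. The difference between lines gave 8, 4, 10 and 1 in that order. In *Cryab* homo, 1 was called with every gene kept and 1 with the likelihood-ratio test. Against the summed counts with every gene kept, 4 were called between the ages, 8 for homo against het and 2 for the difference between lines. The ratio of summed shares between the ages was 0.624 of all counts, 1.07 without crystallins and 1.80 with TMM; in *Cryaa* homo it was 1.52, 1.11 and 1.12. In *Cryab* het it turned from 1.10 of all counts to 0.952 with TMM, and in *Cryab* homo from 1.15 to 0.894.

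Leaving out 1 library gave 19 to 39 genes called between the ages (3 to 7 against the summed counts), 4 to 32 in *Cryaa* homo (3 to 38), 3 to 38 for homo against het (2 to 42) and 1 to 23 for the difference between lines (0 to 30). The highest counts in the last 3 came without *Cryaa* homo replicate 1, and the 0 without *Cryab* WT replicate 3. With the replicate block, 48 genes were called between the ages, the call of *Rps12* being lost, and 0 in *Cryab* homo, the contrast where the numbers showed pairing. Genes with few words of their own or few counts limit what these reads can show.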
